A study of Homo sapiens with 4 samples.

Results

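The genes described here encode the coats, adaptors, cargo receptors and fusion proteins that carry membrane cargo between the ER, the Golgi, endosomes and the cell surface. They were taken by symbol from the protein-coding genes of a RefSeq table: genes whose names begin with SEC, TMED, VPS, SNX or VAMP and a number, the COPI coat genes named COPA, COPB, COPE, COPG and COPZ, and the beta, gamma, mu and sigma subunits of the AP-1 to AP-4 adaptors. The rule gave 140 of 20052 protein-coding genes, and 84 of them held 134 of the 14858 peaks in the list. A few symbols fit the rule while the protein does other work. The SEC61, SEC62 and SEC63 proteins belong to the ER entry channel and the SEC11 proteins to the signal peptidase. The SEC14-like proteins bind lipids, and VPS72 is a chromatin protein. All of these are given here as their own groups, as is the read-through gene TMED7-TICAM2.

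The data came from HCCLM3, a metastatic human hepatocellular carcinoma line. The labels gave 4 libraries, 2 of RNA pulled down with YTHDF2 (RNA immunoprecipitation, RIP) and 2 of input, and all were labelled genotype WT with no treatment or time named. The processed data were 1 list of peaks, with no value per library, so no spread between replicates and no sequencing depth can be given. No control pulldown was among the samples, so a peak shows enrichment over input in the pulldown and not binding by itself.

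Coated vesicles form where coat subunits are recruited to a membrane, which for COPII and COPI is done by a small GTPase. COPII leaves the ER, COPI returns from the Golgi, and clathrin with AP adaptors works at the trans-Golgi network, endosomes and plasma membrane. Retromer and sorting nexins pull cargo out of endosomes, ESCRT proteins push it into their lumen, tethers such as HOPS hold membranes together, and SNAREs such as the VAMP proteins fuse them. YTHDF2 is a cytosolic reader of N6-methyladenosine in RNA, known for recruiting deadenylases to the transcripts it binds.

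Each peak carries the authors' fold enrichment, the RIP signal over the peak caller's background at its highest point (the summit). It also carries a q, the peak caller's adjusted p-value. A peak passed here with a q of 0.01 or less, that is a −log10 q of at least 2. The fold and the p-value together give the whole number of RIP fragments at a summit, and the intervals printed with folds are 95% exact Poisson intervals of that number with the background held fixed. They cover counting error only, and not the spread between cultures or libraries. A list of peaks holds no level for a gene without one, so a missing gene may be low in these cells or not enriched.

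Of the 140 genes, 84 (60.0%) had a peak, where 34.7% of all protein-coding genes did. Which genes the cells expressed is not known from the list, so this difference was not tested. A passing peak was present for 45 of the 84 genes, or 53.6%, and the share among all protein-coding genes with a peak was 53.2%, which is nearly the same. The best passing fold had a median of 2.79 over the 45 genes, with quartiles of 2.38 and 3.65, and a median of 2.64 with quartiles of 2.12 and 3.62 over the 3701 protein-coding genes that passed. Among genes with a peak, the group thus lay close to protein-coding genes at large in the share passing and in fold. Of all 140 genes 45 passed, where 18.5% of all protein-coding genes did, and this difference was not tested either. Of the 45 genes, 6 had a best passing fold over 4, 33 had one of 2 to 4 and 6 had one under 2.

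**Figure D1:**
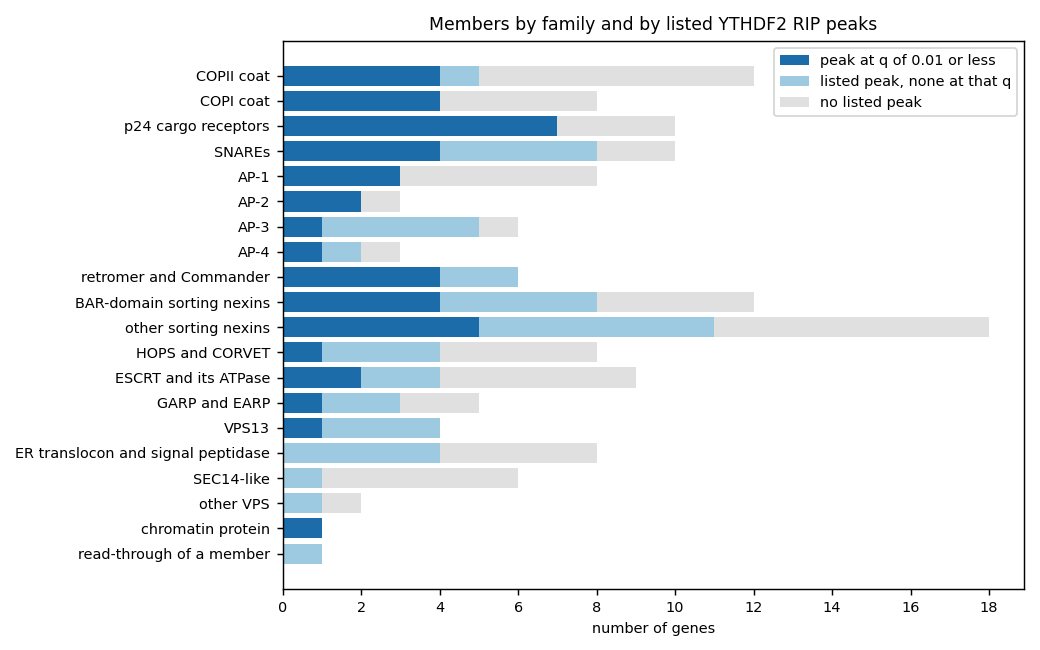
Number of genes in each family (bars, in genes) with a peak at a q of 0.01 or less (dark), with a listed peak but none at that q (light) and with no listed peak (grey). The p24 family shows 7 of 10 genes in the dark class, and the ER translocon group none of 8, leaving out the SEC61G peak just beyond its gene.

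The families differed in how many genes passed. All 7 p24 genes with a peak passed, as did all 4 COPI genes with one and the 4 subunits of the retromer core. No gene of the ER translocon and signal peptidase group passed, and 1 of the 5 AP-3 genes with a peak did. These counts depended on how peaks were given to genes. By the gene named in the deposited list, 1 of 3 genes of the translocon group passed through a SEC61G peak whose summit lay 4 bases beyond the gene, and 5 of 6 p24, 1 of 1 COPI, 2 of 3 retromer and Commander and 0 of 2 AP-3 genes passed. The counts are small, and their differences between families were not tested.

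The largest fold was that of VAMP7, a SNARE of late endosomes and lysosomes, at 11.1 (6.62 to 17.6). The peak lay over exon 6 of 7 (chrX:155939712-155940102) and rested on 16 RIP fragments over a background of 0.533, the genome-wide level, with a −log10 q of 15.5. VAMP7 lies in a region shared by the X and Y chromosomes, so reads of the copies cannot be told apart. A second VAMP7 peak in the 3' UTR had 3 fragments and did not pass. COPA, the alpha subunit of the COPI coat, followed with 7.53 (5.05 to 10.8) over 27 fragments. That peak (chr1:160318306-160318717) was of promoter class in the list, which gives it to SUMO1P3, a pseudogene inside COPA, at a distance of 1041 bases from the pseudogene's start. Its first 169 bases overlapped the far end of SUMO1P3 and its summit lay 34 bases past it, so which of the 2 transcripts gave the reads cannot be told apart. COPA's own 3' UTR peak had a fold of 1.34 and did not pass. By the gene named in the deposited list, neither VAMP7 nor COPA had a peak.

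By −log10 q the order was another one, because the measure grows with the number of fragments. TMED2, a p24 cargo receptor, led with 33.1, followed by SNX3, a sorting nexin that works with retromer, at 31.1. SEC13 of the outer COPII cage had 25.0, SNX12, the close relative of SNX3, 23.2, and VPS29 of retromer 20.1. Their folds ran from 2.54 to 3.36, over 110 to 238 fragments. VAMP7 and COPA, with the largest folds, had a −log10 q of 15.5 and 14.6, lower than these genes but well above the threshold of 2.

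**Figure D2:**
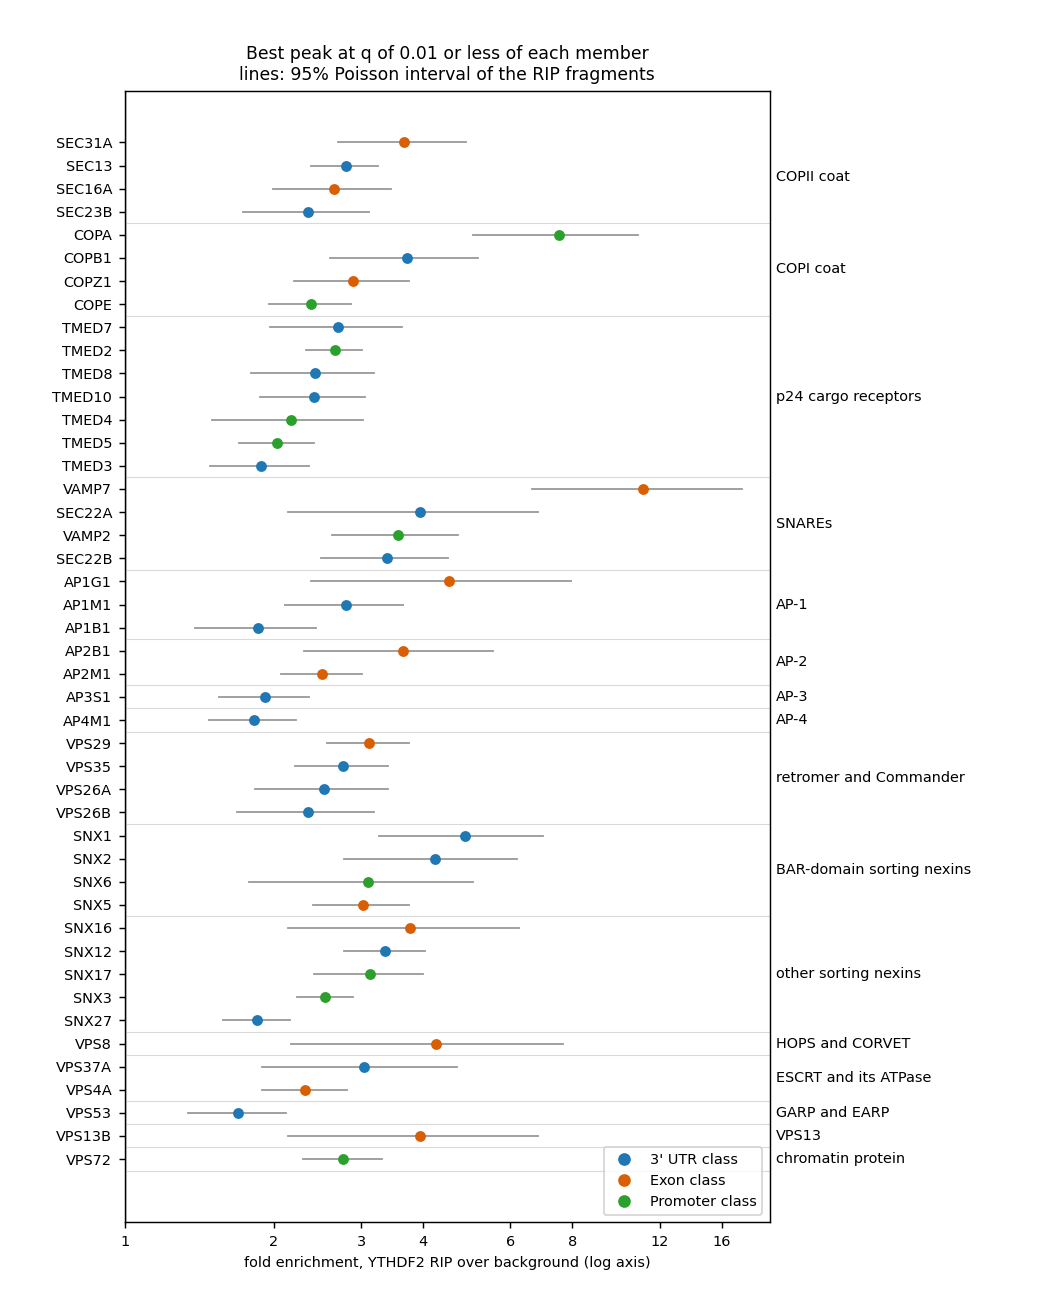
Fold enrichment (log axis, no unit) of the best passing peak of each of the 45 genes, grouped by family, with colours for the peak class and lines for the 95% Poisson interval of the RIP fragments. VAMP7 at 11.1 and COPA at 7.53 stand to the right, and most other points lie between 2 and 4. Not all lines in that range overlap, as those of SNX12 (2.77 to 4.03) and TMED5 (1.70 to 2.41) are apart.

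In the COPII coat, 5 of 12 genes had a peak and 4 passed. SEC31A, which builds the outer cage with SEC13, had 3.66 (2.69 to 4.87) in exon 17 of 27 over 45 fragments. SEC13 had 2.79 (2.38 to 3.25) in its 3' UTR (chr3:10300820-10301176) over 163 fragments. SEC16A, the scaffold of ER exit sites, had 2.64 (1.99 to 3.44) in exon 2 of 29, and SEC23B of the inner coat 2.35 (1.73 to 3.11) in its 3' UTR. The intervals of these 4 genes overlapped. SEC24D, a cargo-binding subunit, had a 3' UTR peak of 2.71 over 11 fragments and an intron peak of 3 fragments, and neither passed. SEC23A, SEC23IP, SEC24A, SEC24B, SEC24C, SEC16B and SEC31B had no peak, so of the SEC24 paralogs none passed, and of the SEC23 pair SEC23B alone was listed.

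In the COPI coat, 4 of 8 genes had a peak and each of them passed. After COPA came COPB1, the beta subunit, with 3.71 (2.59 to 5.17) in its 3' UTR and 1.95 (1.44 to 2.59) in exon 10 of 22. COPZ1, the zeta subunit, had 2.89 (2.19 to 3.75) in exon 5 of 8. A further peak of 2.95 with a −log10 q of 18.7 (chr12:54351592-54352013) had its summit inside the spans of both COPZ1 and GPR84 and was given to GPR84, the deposited gene. COPE, the epsilon subunit, had 2.38 (1.95 to 2.86) at the end of the gene, in a peak classed as promoter for its closeness to CERS1. COPB2, COPG1, COPG2 and COPZ2 had no peak.

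Among the p24 proteins, which package cargo such as GPI-anchored proteins at the ER and cycle between ER and Golgi, 7 of 10 genes had a peak and all 7 passed. TMED7 had 2.69 (1.96 to 3.62), TMED2 2.65 (2.32 to 3.01), TMED8 2.42 (1.80 to 3.19), TMED10 2.41 (1.88 to 3.05), TMED4 2.16 (1.50 to 3.02), TMED5 2.03 (1.70 to 2.41) and TMED3 1.88 (1.48 to 2.35). The folds were moderate and close together, and TMED2 with 2.32 to 3.01 and TMED3 with 1.48 to 2.35 still overlapped at the edge. TMED1, TMED6 and TMED9 had no peak. The TMED7 summit also lay within the read-through gene TMED7-TICAM2, and a neighbouring peak given to the read-through had a fold of 1.55 and did not pass. The TMED5 summit also lay within the span of CCDC18.

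For 5 genes a passing peak lay just behind the start of the gene, with its summit 263 to 359 bases downstream. The genes were TMED2, TMED10, TMED5, SNX3 and SNX6, which is a BAR-domain sorting nexin. The list classes these peaks as promoter, although they lie in transcribed sequence. TMED2 and SNX3 had 234 and 238 fragments there, the highest numbers among all peaks of the 140 genes. TMED2, TMED10 and SNX3 also had a passing 3' UTR peak. Of the 57 passing peaks with a known strand, 6 (10.5%) had their summit before 0.1 of the gene's length. That share was 8.09% over passing peaks of protein-coding genes, and the difference was not tested. The starts of the 5 transcripts are shown because a passing peak follows each of them closely. The −log10 q of these peaks was 33.1 in TMED2 and 31.1 in SNX3, the highest of the group, but 10.8 in TMED10, 9.42 in TMED5 and 2.09 in SNX6. Each line has 70 bases before the start in lower case and the first 30 transcribed bases in capitals, 5′ to 3′ on the gene's strand, from RefSeq on GRCh38.p14.
TMED2: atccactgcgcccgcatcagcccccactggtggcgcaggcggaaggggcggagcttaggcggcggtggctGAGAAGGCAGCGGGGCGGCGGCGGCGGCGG
SNX3: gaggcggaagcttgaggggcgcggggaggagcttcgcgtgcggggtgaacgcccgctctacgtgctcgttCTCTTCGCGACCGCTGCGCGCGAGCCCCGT
TMED10: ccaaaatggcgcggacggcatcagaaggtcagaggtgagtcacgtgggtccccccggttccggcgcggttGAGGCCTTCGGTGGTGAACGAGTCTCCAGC
TMED5: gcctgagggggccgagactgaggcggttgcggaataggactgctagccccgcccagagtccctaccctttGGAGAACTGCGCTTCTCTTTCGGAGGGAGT
SNX6: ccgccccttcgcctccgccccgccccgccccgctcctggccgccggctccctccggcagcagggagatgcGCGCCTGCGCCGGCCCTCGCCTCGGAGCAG
The windows are chr12:123584482-123584581 on the plus strand for TMED2 and, on the minus strand, chr6:108261011-108261110 for SNX3, chr14:75176583-75176682 for TMED10, chr1:93180384-93180483 for TMED5 and chr14:34630119-34630218 for SNX6. The near edge of the peak lay 175 bases after the start in TMED2, 186 in SNX3, 188 in TMED10, 189 in SNX6 and 269 in TMED5, so the printed bases are outside the peaks. Their G and C content was 77% for TMED2, 72% for SNX3, 65% for TMED10, 63% for TMED5 and 83% for SNX6, where the median over 22198 such windows of protein-coding genes was 65% with quartiles of 55% and 73%. As a set these starts thus ranged from just under the median to above the upper quartile.

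Of the 10 SNAREs of the VAMP and SEC22 families, 8 had a peak and 4 passed. After VAMP7 came SEC22A with 3.95 (2.14 to 6.80) in its 3' UTR over 11 fragments. It had 3 further peaks that did not pass, with folds of 1.96 to 2.97. VAMP2, the synaptobrevin of regulated exocytosis, had 3.55 (2.62 to 4.71) over 46 fragments, 2393 bases into the gene. SEC22B, the ER to Golgi SNARE, had 3.38 (2.49 to 4.48) in its 3' UTR, also over 46 fragments. The gene table lists 3 SEC22B pseudogenes on the same chromosome, so reads of SEC22B are uncertain. VAMP1 (2.85), VAMP3 (1.33), VAMP4 (3.75 over 5 fragments) and SEC22C (1.66) had no passing peak. VAMP5 and VAMP8 had no peak. VAMP3, the cellubrevin of endosomes, is a close relative of VAMP2, and its listed peak had 115 fragments over a background of 86.3.

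In the AP-1 adaptor of the trans-Golgi network and endosomes, the 3 genes with a peak of 8 all passed. AP1G1, the gamma subunit, had 4.52 (2.38 to 7.96) in exon 6 of 24 over 10 fragments and 2.56 (2.04 to 3.18) in its 3' UTR over 80. AP1M1, the mu subunit that reads tyrosine signals, had 2.79 (2.10 to 3.63), and AP1B1 1.85 (1.39 to 2.43). AP1G2, AP1M2, AP1S1, AP1S2 and AP1S3 had no peak, so no sigma subunit of AP-1 was listed.

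In the AP-2 adaptor of endocytosis, AP2B1 had 3.65 (2.30 to 5.54) in exon 3 of 22 over 20 fragments and a 3' UTR peak of 1.53 that did not pass. AP2M1 had 2.50 (2.07 to 3.01) in exon 8 of 11 and 2.13 (1.80 to 2.50) in exon 6 over 146 fragments, and AP2S1 had no peak. Both AP-2 genes thus passed over internal exons. The AP-3 adaptor, which sorts to lysosomes and related organelles, had 5 of 6 genes listed, of which AP3S1 passed with 1.92 (1.55 to 2.35). AP3B1, AP3M1, AP3M2 and AP3S2 had peaks that did not pass, and AP3B2 had none. In AP-4 the gene AP4M1 had a pair of passing 3' UTR peaks of 1.82 and 1.81, and the summits of both also lay inside the span of TAF6. AP4S1 had a pair of peaks that did not pass, and AP4B1 had none.

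The retromer core was listed whole. VPS29 had 3.11 (2.56 to 3.74) in exon 3 of 4 over 110 fragments and 2.71 (2.15 to 3.37) in its 3' UTR. VPS35, its backbone, had 2.75 (2.21 to 3.39) in its 3' UTR and 2.16 (1.71 to 2.69) in exon 10 of 17. VPS26A and VPS26B, alternative subunits of the same position, had 3' UTR folds of 2.52 (1.83 to 3.40) and 2.34 (1.68 to 3.18) over 41 and 39 fragments. The pair did not differ beyond these intervals. VPS35L and VPS26C, the matching subunits of the retriever complex, had 2.91 over 10 and 2.35 over 23 fragments, and neither passed.

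Sorting nexins bind phosphoinositides on endosomes, and those with a BAR domain also bend the membrane. Of 12 BAR-domain genes, 8 had a peak and 4 passed: SNX1 with 4.86 (3.26 to 7.00), SNX2 with 4.22 (2.76 to 6.20), SNX6 with 3.09 (1.78 to 5.04) and SNX5 with 3.02 (2.40 to 3.75). These 4 are the subunits that pair SNX1 or SNX2 with SNX5 or SNX6 on recycling tubules. SNX1 and SNX2 are paralogs, both had their best peak in the 3' UTR, over 27 and 24 fragments, and their intervals overlapped. SNX4, SNX7, SNX9 and SNX18 had peaks that did not pass, with folds of 3.04, 1.96, 1.32 and 1.28, and SNX8, SNX30, SNX32 and SNX33 had none.

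Of the 18 other sorting nexins, 11 had a peak and 5 passed. SNX16 had 3.76 (2.13 to 6.25) in exon 7 of 10 over 13 fragments, and its 3' UTR peaks had 3.16, which passed, and 2.70, which did not. SNX12 had 3.36 (2.77 to 4.03) in its 3' UTR (chrX:71059112-71059614) over 113 fragments. SNX17, which selects cargo for retriever, had 3.12 (2.41 to 3.99) over 62 fragments. SNX27, which selects cargo for retromer, had 1.85 (1.58 to 2.16) and 1.69 (1.37 to 2.05) in 3' UTR peaks over 162 and 97 fragments. Its other peaks, an intron peak of 1.96 over 2 fragments and a 3' UTR peak of 1.21, did not pass. SNX3 and SNX12, which share their domain structure, thus differed in where their best peak lay: behind the start in SNX3 and in the 3' UTR in SNX12. Both had a passing 3' UTR peak, that of SNX3 with a fold of 1.58 over 127 fragments. SNX13 and SNX14 had 3 peaks each of 3 or 4 fragments. Together with SNX10, SNX15, SNX21 and SNX29 they had no passing peak, and SNX11, SNX19, SNX20, SNX22, SNX24, SNX25 and SNX31 had none.

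The endosomal tethers and VPS13 proteins were listed mostly by weak peaks. Of the 8 HOPS and CORVET genes, VPS8 of CORVET alone passed, with 4.24 (2.17 to 7.66) in exon 34 of 48 over 9 fragments. VPS11 (1.30), VPS39 (1.50) and VPS41 (2.23) did not pass, and VPS16, VPS18, VPS33A and VPS33B had no peak. Of the 4 VPS13 genes, which bridge membranes for lipid transfer, all had peaks, 14 in sum. Of these the 2 that passed were exon peaks of VPS13B, with 3.95 (2.14 to 6.80) over 11 and 3.62 (1.91 to 6.38) over 10 fragments. VPS13C had 5 peaks, the highest 3.91 over 5 fragments with a −log10 q of 1.92, just outside the threshold. VPS13A had 3.39 over 7 fragments, and VPS13D 2.98 over 4.

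Among the ESCRT genes named VPS, VPS37A of ESCRT-I had 3.05 (1.89 to 4.67) in its 3' UTR, and VPS4A, the ATPase that takes ESCRT-III apart, had 2.31 (1.89 to 2.80) in exon 3 of 11 over 102 fragments. VPS37B and VPS37C had peaks that did not pass, and VPS25, VPS28, VPS36, VPS37D and VPS4B had none. In the GARP and EARP tethers VPS53 passed with 1.69 (1.34 to 2.11), VPS50 and VPS54 did not, and VPS51 and VPS52 had no peak. VPS9D1 had 2.39 over 16 fragments without passing, and VPS45 had no peak.

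Of the genes taken by symbol only, VPS72 passed with 2.76 (2.29 to 3.30) over 120 fragments. SEC61B (1.57), SEC61A1 (1.34), SEC61A2 (3.26 over 4 fragments), SEC11A (1.79 over 2) and SEC14L1 (2.61 over 3) did not pass. SEC61A1 and SEC61B had 126 and 69 fragments, over backgrounds of 93.8 and 43.5. SEC62, SEC63, SEC11C and the other SEC14-like genes had no peak. SEC61G, a small subunit of the channel, also counts as without a peak, but a 3' UTR peak of 4.35 with a −log10 q of 7.83 (chr7:54752066-54752386) had its summit 4 bases beyond the end of the gene in the table. It was named SEC61G in the deposited list. In all, 8 of the 134 peaks had a summit that also lay inside another protein-coding gene.

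The genes closest to the threshold were TMED4 (−log10 q 2.02), AP1B1 (2.02), SNX6 (2.09) and VPS53 (2.50) inside it, and VPS13C (1.92), VPS26C (1.71), VAMP4 (1.68) and AP3M1 (1.63) outside it.

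The fold of a peak depended on its background. Among the 59 passing peaks of these genes the median fold was 3.95 for 13 peaks with a background under 5 fragments, 2.79 for 17 with 5 to 20, 2.41 for 17 with 20 to 50, and 2.07 for 12 above 50. The medians over all passing peaks of protein-coding genes were 4.31, 2.85, 2.27 and 1.87 in the same ranges. The rank correlation of fold and background was -0.80 over the 59 peaks and -0.81 over the 4988, given as a description, since both values come from the same summit and a weak background asks a high fold to pass. The genes followed the trend of the whole list, with medians slightly below it at low and slightly above it at high background, a difference that was not tested.

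**Figure D3:**
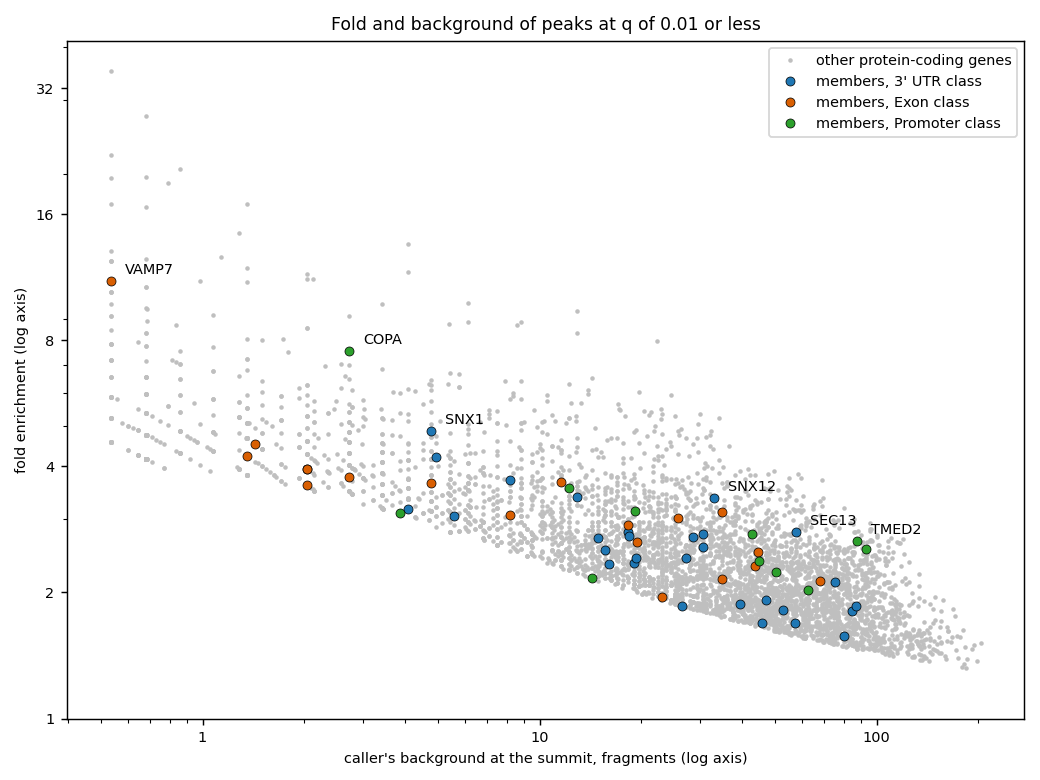
Fold enrichment against the peak caller's background at the summit (both log axes, background in fragments) for passing peaks of the 140 genes (coloured by class) and of other protein-coding genes (grey). The coloured points follow the grey cloud from VAMP7 at 0.533 fragments to SNX3 at 93.1.

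By class, the passing peaks of these genes lay mostly in the 3' UTR and in exons. By position, 24 of the 57 passing peaks with a known strand (42.1%) had their summit past 0.9 of the gene's length. Over passing peaks of protein-coding genes that share was 44.5%, and the difference was not tested. Of the 59 passing peaks, 30 were in the 3' UTR (50.8%, 95% Clopper-Pearson interval 37.5 to 64.1), 18 in exons (30.5%, 19.2 to 43.9) and 11 in the promoter class (18.6%, 9.69 to 30.9). Over all 4988 passing peaks of protein-coding genes the shares were 41.3%, 26.9% and 26.5%, each within the interval of these genes. Over all listed peaks, passing or not, the 3' UTR held 44.0% of the 134 peaks of these genes (35.5 to 52.9) and 33.0% of the 12236 of protein-coding genes, which lies below that interval. Peaks of 1 gene are not independent, and this difference was not tested. None of the 26 intron peaks passed, a share of 0 of 59 with a Clopper-Pearson upper limit of 6.06%, and 3.71% of passing peaks in protein-coding genes were in introns. Of the intron peaks, 21 rested on 4 or fewer fragments, and for 10 genes they were the only peaks. Of the 32 exon peaks, passing or not, 31 were in internal exons, 1 was in a last exon (VPS37C) and none in a first exon. The list gives each peak 1 class, with peaks just behind a start in the promoter class and those of the 3' UTR in their own. The exon class by itself therefore cannot show how peaks divide among first, internal and last exons. Of the 11 passing promoter-class peaks, 5 are those behind the start shown above, and the other 6 were in COPA, COPE, VAMP2, VPS72, SNX17 and TMED4. Passing peaks had a median width of 378 bases, against 374 for protein-coding genes.

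**Figure D4:**
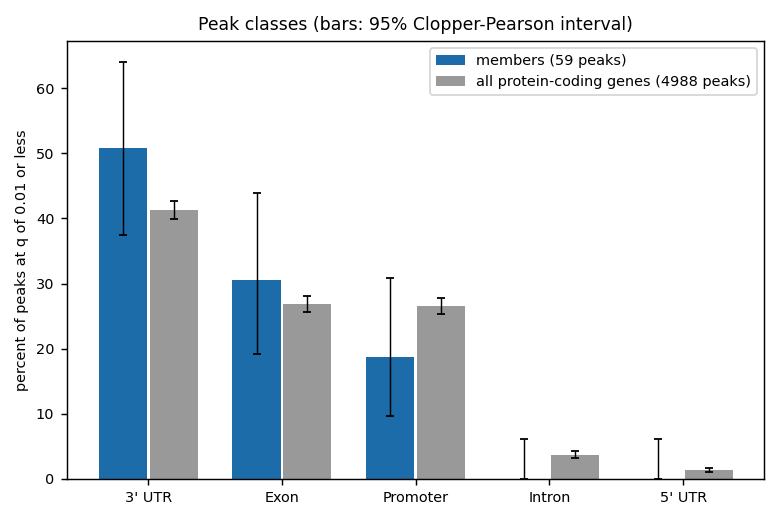
Share of passing peaks (percent) in each class for these genes (blue, 59 peaks) and for all protein-coding genes (grey, 4988 peaks), with 95% Clopper-Pearson intervals. The blue bar for the 3' UTR stands at 50.8% and the grey at 41.3%, within the blue interval.

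A pair of passing peaks was found in 14 of the 45 genes (31.1%, against 24.3% of protein-coding genes that passed). In 12 of the 14 the intervals of the pair overlapped. In SNX3 the peak behind the start had 2.54 (2.23 to 2.88) over 238 fragments and that in the 3' UTR, 48814 bases further along the gene, 1.58 (1.32 to 1.87) over 127. In COPB1 the order was the other way, with 1.95 (1.44 to 2.59) in exon 10 and 3.71 (2.59 to 5.17) in the 3' UTR, and the intervals met at about 2.59 without overlapping. In TMED2 the peak behind the start had 2.65 (2.32 to 3.01) and that in the 3' UTR 2.12 (1.81 to 2.47), while in TMED10 the values were 2.24 and 2.41. The peak nearer the 5' end had the higher fold in 8 of the 14 genes and that nearer the 3' end in the other 6.

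**Figure D5:**
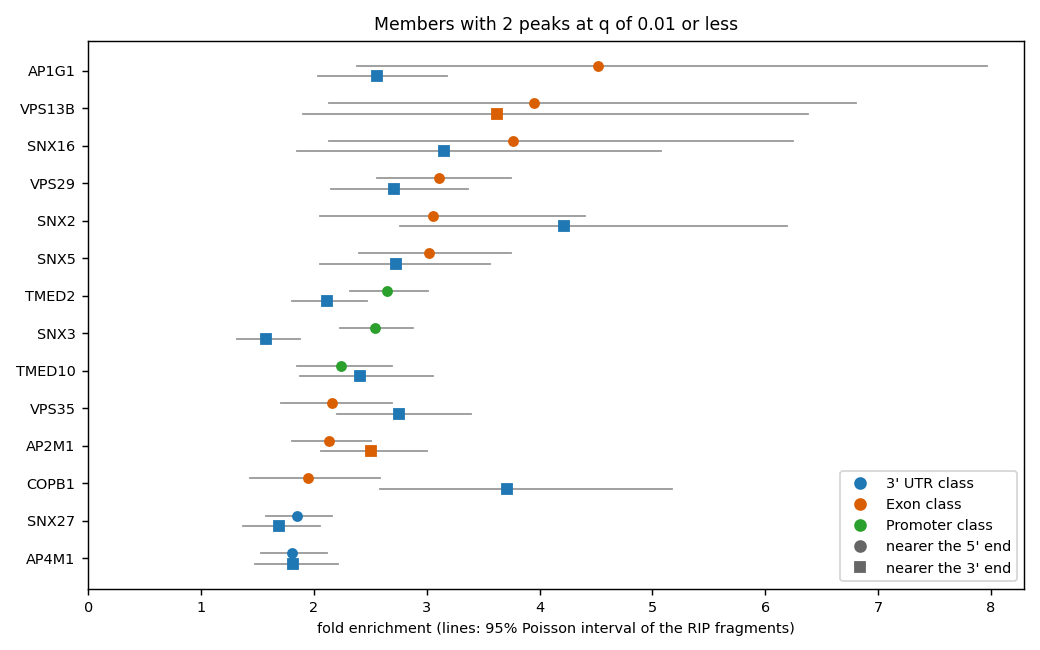
Fold enrichment of the peaks of the 14 genes with 2 passing peaks, with circles for the peak nearer the 5' end, squares for that nearer the 3' end, colours for the class and lines for the 95% Poisson interval. The lines of SNX3 (2.54 and 1.58) and COPB1 (1.95 and 3.71) are apart, and those of the other 12 genes overlap.

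Other genes of the same pathways, which the symbol rule does not take, were listed beside them. Of 121 such genes, 84 had a peak and 60 passed, which is 71.4% of those with a peak, with a median best passing fold of 2.51. Over protein-coding genes 34.7% had a peak, 53.2% of those passed, and 18.5% of all 20052 passed. The lists were drawn up by hand from known pathway genes and their difference from that background was not tested. Among the GTPases that recruit coats and their regulators 13 of 14 had a peak and 12 passed. SAR1A, which starts the COPII coat, had 3.36 over 48 fragments in a peak of intron class. ARF1 (2.06) and ARF4 (2.31), which recruit COPI, passed with peaks of promoter class. Of the ER to Golgi cargo receptors 11 of 13 had a peak and 10 passed, including ERGIC2 (5.16 over 13 fragments), LMAN1 (2.10), SURF4 (2.33) and KDELR1 (1.49). Of the ESCRT genes with other names 15 of 21 had a peak and 13 passed, led by MVB12A (5.74 over 19 fragments), MVB12B (5.36 over 8) and TSG101 (4.59 over 41), which sit in ESCRT-I with VPS37A. All 4 clathrin genes had a peak and 2 passed, the light chain CLTA with 2.59 over 264 fragments and the heavy chain CLTC with 2.30.

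The missing coat subunits were partly found there. ARCN1, the delta subunit of COPI, had 2.90 (2.46 to 3.41) over 150 fragments, so that with COPA, whose peak borders a pseudogene, 5 of the 7 kinds of COPI subunit had a passing peak. AP3D1 had 1.95 and AP4E1 3.64, and the AP-2 alpha genes AP2A1 and AP2A2 did not pass. Of the other SNAREs and their factors 14 of 29 had a peak and 7 passed, led by STX3 with 3.77 over 107 fragments. Of the endocytic and sorting adaptors 16 of 28 had a peak and 11 passed, led by WASHC2A with 5.93 over 13 fragments.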

How the data were processed

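RIP and input libraries of HCCLM3 cells were aligned with HISAT2 and peaks called with MACS2 on hg38, per the submitters' processing notes; versions, thresholds and the way libraries were combined are not stated there. Per the file headers, the deposited list gives each peak's fold enrichment (a ratio of RIP to background), −log10 p and −log10 q, and a score. Peaks went to the gene in the exon or intron annotation, and otherwise to the gene of the RefSeq GRCh38.p14 table whose span held the summit. Ties went to protein-coding genes, then to the gene the authors had deposited. RIP fragments were the whole number that met both fold and p-value (largest −log10 p residual 0.000189). The recovery was tested on data simulated with the same formulas, which checks the calculation only. The peak of highest fold stood for a gene. The members and lists were chosen with earlier results of these data known. Genes named in full were, per family, up to 4 with the highest passing fold, the 10 leading by fold or −log10 q, and those with 3 or more peaks. Other members were given briefly, and pathway genes were named after their values were seen. No test over samples was possible. Alternatives covered gene assignment, contigs, q, fold and peak class. Python 3.11.15, pandas 2.3.3 and scipy 1.17.1 were used.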

Additional observations from a re-analysis of the deposited data

How the results depend on the processing

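No paired analysis was possible because the list gives no value per library. The number of genes with a peak (84) was 51 at a q of 0.05 or less, 30 at a −log10 q of at least 5 and 6 at a fold of at least 4, where the number passing a q of 0.01 was also 6. With the deposited gene, 56 genes had a peak and 31 passed, and the 3' UTR share was 45.2%. Of the 46 genes named in full, 18 then had no peak, among them VAMP7, COPA, SNX1, AP1G1, SNX2 and SEC13. The best fold moved beyond the Poisson interval for 3 and stayed inside it for 25. The deposited gene was the assigned one for 51.5% of the 134 peaks. Among the other alternatives run, the median best-peak fold lay between 2.46 and 2.79 and the 3' UTR share between 47.2% and 51.7%. Genes are not replicates, so no interval is given for that median. Giving a peak to every member whose span held the summit and keeping peaks of 10 or more fragments were chosen after seeing the data. The median best-peak fold of 2.61 equals the fold of 3 fragments over the genome-wide background, a value that several genes share. The best peaks of the 84 genes had a median of 26.5 fragments and a median background of 11.9. No peak of these genes lay on an alternative contig. With few fragments, as in VAMP4 or VPS13C, a fold near 4 still missed the threshold.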
